A study of Mus musculus with 6 samples.

Results

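The genes described here make, conjugate, move and sense bile acids in the mouse liver. They are 10 named genes, found by an exact match of the gene name in a table of read counts for 25904 genes, and each name matched 1 row. By role they are the synthesis enzymes Cyp7a1, Cyp8b1, Cyp27a1 and Cyp7b1, the conjugation genes Baat and Slc27a5, the transporters Slc10a1 and Abcb11, and the nuclear receptors Nr1h4 and Nr0b2. Polyadenylated RNA was sequenced from 3 livers heterozygous for Ptprd (Ptprd+/-) and 3 wild-type livers (Ptprd+/+), all from C57BL/6J mice. Ptprd encodes a receptor-type protein tyrosine phosphatase, and the series title ties its loss to metabolic disease of the liver. The sources used here do not give the Ptprd allele, nor the animals' sex, age, feeding or time of killing. The labels list 3 samples per genotype and say no more of their origin, so the p-values measure only the spread between these samples, which may be partly technical.

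Bile acids are made from cholesterol in hepatocytes. The classical route opens with CYP7A1, its rate-limiting enzyme, while the alternative route opens with the mitochondrial CYP27A1 and continues through CYP7B1. CYP8B1 directs intermediates towards cholic acid. SLC27A5 joins bile acids to coenzyme A, and BAAT joins them to taurine or glycine. The acids leave through the canalicular pump ABCB11 (BSEP) and return from portal blood through SLC10A1 (NTCP). They bind the receptor FXR, encoded by Nr1h4, which induces Nr0b2 (SHP), a repressor of Cyp7a1 and Cyp8b1. Cyp7a1 messenger RNA has a strong daily rhythm, driven in part by clock output factors such as DBP and by feeding.

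Libraries held 38918379 to 72954187 counts in Ptprd+/- livers and 37924266 to 48526395 in Ptprd+/+ livers. Levels are given as CPM, read counts scaled by the effective library size. Ptprd had 54.1, 78.1 and 63.4 CPM in Ptprd+/- livers and 128, 127 and 132 CPM in Ptprd+/+ livers, 1.98-fold lower, so each library matched its genotype label. The hepatocyte marker Alb averaged 127897 CPM in Ptprd+/- livers and 108968 CPM in Ptprd+/+ livers, and the cholangiocyte markers together took 65.0 to 77.3 CPM in Ptprd+/- livers and 68.5 to 86.5 CPM in Ptprd+/+ livers. Clock genes set Ptprd+/- 2 and 3 apart from the other libraries. A clock score was taken as the mean log2 CPM of Dbp, Nr1d2, Per2, Per3 and Tef minus that of Arntl, Clock, Npas2 and Nfil3. It was 0.65, 5.00 and 5.34 in Ptprd+/- 1, 2 and 3, and 1.82, 2.80 and 1.51 in the Ptprd+/+ livers.

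None of the 10 bile acid genes passed an adjusted p of 0.05 by edgeR's quasi-likelihood test or by DESeq2, where the shares over all 14606 tested genes were 0% and 0.452%. Ptprd itself had an edgeR adjusted p of 0.298, so missing that threshold does not show that a gene was unchanged. At an unadjusted p under 0.05 by edgeR there were 2 of 10, Cyp7a1 and Baat, both with the lower mean in Ptprd+/- livers, against 7.15% of all tested genes. In 1 of 10, Baat, every Ptprd+/- library lay below every Ptprd+/+ library, against 6.72% of all tested genes (981 of 14606). In 0 of 10 every Ptprd+/- library lay above, against 1044 of 14606. Counting both directions, 1 separated gene of 10 was not above the share over all tested genes. The fitted change was negative for 9 of the 10, where it was negative for 50.8% of all tested genes, and the median log2 fold change was -0.13 beside -0.0039 over all genes. That count depended on single libraries. It was 7 of 10 without Ptprd+/- 3, 7 without Ptprd+/+ 3, and 4 of 10 with a median of 0.037 when Ptprd+/- 2 and 3, the libraries apart in clock genes, were both left out. The 10 genes together took 0.381, 0.379 and 0.330% of counts in Ptprd+/- livers and 0.426, 0.398 and 0.422% in Ptprd+/+ livers. Those shares are not scaled between libraries. In scaled CPM the sums overlapped, at 3231 to 4062 in Ptprd+/- livers and 3769 to 4286 in Ptprd+/+ livers. Of 10 hepatocyte markers 8 had a positive fold change, with a median of 0.20. In whole liver, fewer cells of a type and less RNA per cell cannot be told apart.

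**Figure D1:**
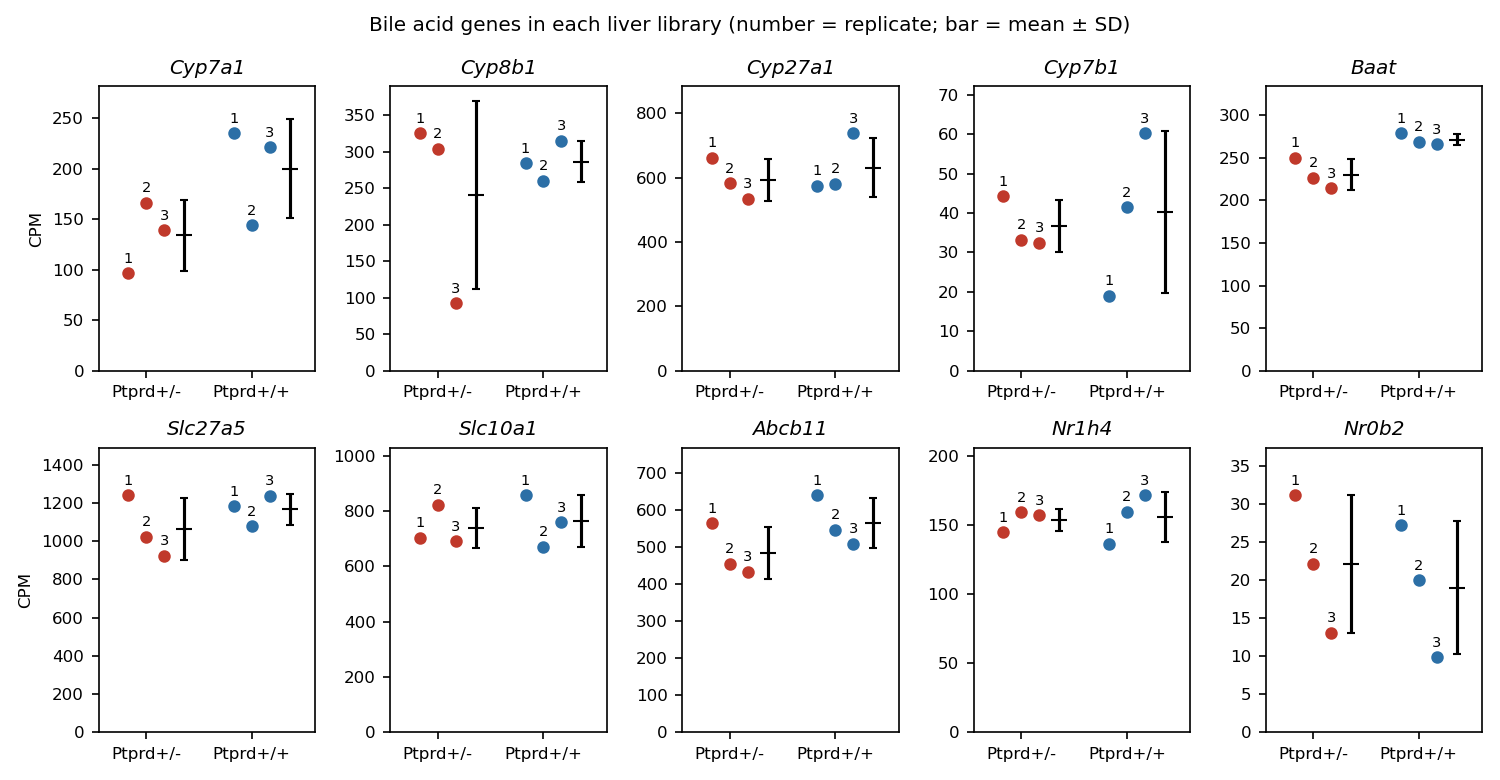
CPM (vertical axes, each from 0) of the 10 bile acid genes in each library, Ptprd+/- left and Ptprd+/+ right, with the replicate number at each point and the mean ± SD (n = 3) as a bar. The genotypes separate for Baat only, and the outlying points are Cyp8b1 in Ptprd+/- 3 at 92.8 CPM and Cyp7b1 in Ptprd+/+ 1 at 19.1 CPM.

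Among the synthesis enzymes, Cyp7a1 had the lowest fitted change. The gene (ENSMUSG00000028240) lies on chromosome 4 at 6265612 to 6275633 (mm10, minus strand), 69.7 Mb from Ptprd on the same chromosome. It had 96.3, 166 and 139 CPM in Ptprd+/- 1, 2 and 3, and 235, 144 and 221 CPM in Ptprd+/+ 1, 2 and 3. Ptprd+/- 1 was the lowest of all, and Ptprd+/+ 2 lay between the other Ptprd+/- libraries, so the genotypes overlapped. The means were 134 ± 35.3 and 199.9 ± 48.9 CPM (SD, n = 3 each), 1.49-fold lower in Ptprd+/- livers. By edgeR the log2 fold change was -0.58 (SE 0.24, 95% interval -1.12 to -0.034) with an unadjusted p of 0.0399 and an adjusted p of 0.694, and by DESeq2 the adjusted p was 0.457. The exact two-sided permutation p over libraries was 0.2, where 3 against 3 cannot give less than 0.1. The sign was negative in all 15 alternative fits, from -0.39 without Ptprd+/- 1 to -1.05 without Ptprd+/- 2 and 3.

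The Cyp7a1 values were set beside the clock genes because of its daily rhythm. Dbp, which encodes a clock output activator, had 13.5, 129 and 122 CPM in Ptprd+/- 1, 2 and 3, and 18.9, 29.6 and 14.4 CPM in Ptprd+/+ 1, 2 and 3. Within the Ptprd+/- livers the libraries with high Dbp also had the higher Cyp7a1, and within the Ptprd+/+ livers the library with the highest Dbp had the lowest Cyp7a1. Nr1d1, the gene of the clock repressor REV-ERB alpha, had 17.6, 55.5 and 46.9 CPM in Ptprd+/- livers and 9.49, 21.4 and 10.4 CPM in Ptprd+/+ livers. Nr1d2, its paralog, had 19.6, 65.5 and 56.5 CPM against 34.7, 47.6 and 34.6 CPM. Arntl, the core activator BMAL1, ran opposite to Dbp, with 21.4, 2.41 and 1.92 CPM in Ptprd+/- livers and 17.2, 11.8 and 19.7 CPM in Ptprd+/+ livers. Bhlhe40, a clock-linked repressor gene, had 78.7, 157 and 147 CPM against 132, 135 and 109 CPM, lowest in Ptprd+/- 1 as Cyp7a1 was. Of the Ptprd+/- livers, number 1 had the clock score nearest to those of the Ptprd+/+ livers, and it had the lowest Cyp7a1. Its score of 0.65 was still below all Ptprd+/+ scores (1.51 to 2.80). A fit of Ptprd+/- 1 alone against the Ptprd+/+ livers, which assumes that the lone library varies like the others, gave -1.05. With the clock score as a covariate the log2 fold change of Cyp7a1 was -0.79 (edgeR adjusted p 0.331). The same fit gave smaller changes for some other members, -0.0053 for Cyp8b1, -0.0062 for Slc27a5, -0.12 for Abcb11 and -0.18 for Baat. It gave larger changes for Nr0b2 (0.41), Nr1h4 (-0.063) and Slc10a1 (-0.058), and turned the sign of Cyp27a1 (0.014) and Cyp7b1 (0.018). The median was -0.032 over the 10 genes, of which 7 were negative. The clock scores of Ptprd+/- 1, 2 and 3 all lay outside the Ptprd+/+ range. For these libraries, the part of the clock state in the Cyp7a1 values cannot be told apart from that of genotype.

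**Figure D2:**
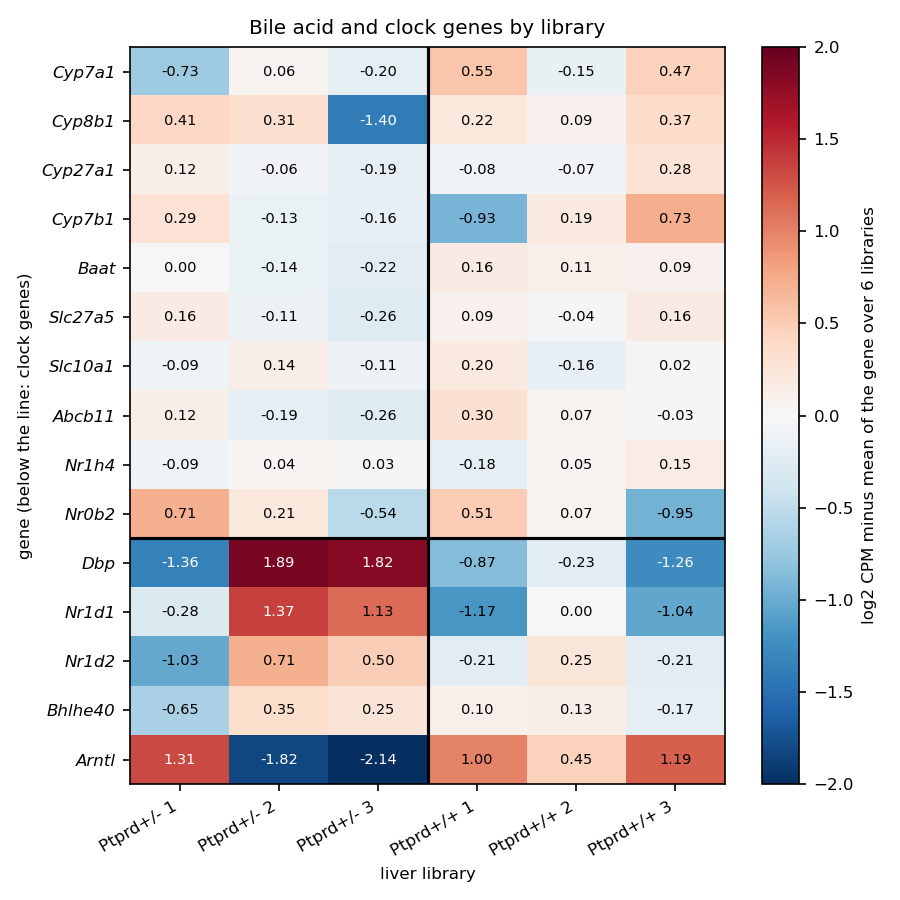
Log2 CPM of each gene minus its mean over the 6 libraries, with the 10 bile acid genes above the line and 5 clock genes below it, Ptprd+/- libraries left and Ptprd+/+ libraries right. Dbp was at 1.89 and 1.82 in Ptprd+/- 2 and 3 and below 0 in the other libraries, while the lowest Cyp7a1 value (-0.73) was in Ptprd+/- 1 and the lowest Cyp8b1 value (-1.40) in Ptprd+/- 3.

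The 5 genes whose centred log2 pattern over the 6 libraries lay closest to that of Cyp7a1 were Enpep, A1cf, Pklr, Pdk1 and Gbe1. Their root mean square differences from it were 0.155 to 0.180 log2 units, among 7376 other genes with at least 10 CPM on average, where the Cyp7a1 pattern itself had a root mean square of 0.433. Pklr encodes liver pyruvate kinase, Gbe1 the glycogen branching enzyme, and A1cf a cofactor of apolipoprotein B mRNA editing.

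Cyp8b1, on chromosome 9 at 121914356 to 121916305 (mm10), had 325, 304 and 92.8 CPM in Ptprd+/- 1, 2 and 3, and 284, 260.1 and 315 CPM in Ptprd+/+ 1, 2 and 3. Ptprd+/- 3 was far below the rest, and the other Ptprd+/- libraries were within or above the Ptprd+/+ range. The means were 241 ± 128 and 286 ± 27.6 CPM (SD, n = 3 each), with a log2 fold change of -0.25 (SE 0.39, edgeR adjusted p 0.897) that was 0.13 without Ptprd+/- 3. Its spread within genotypes, a pooled SD of 0.73 log2 units, was larger than that of 96.1% of tested genes. The part of the clock state in the Cyp8b1 values was not tested apart from the fit with the clock score, where the log2 fold change was -0.0053.

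The alternative route was split between an even and an uneven gene. Cyp27a1 had 662, 582 and 534 CPM in Ptprd+/- livers and 575, 581 and 737 CPM in Ptprd+/+ livers, a log2 fold change of -0.090 (95% interval -0.41 to 0.23). Ptprd+/+ 3 was highest and Ptprd+/- 1 next, with the other libraries between 534 and 582 CPM, so the genotypes overlapped. Without Ptprd+/+ 3 the log2 fold change was 0.037. Cyp7b1 had 44.2, 33.2 and 32.5 CPM in Ptprd+/- livers and 19.1, 41.4 and 60.2 CPM in Ptprd+/+ livers. The Ptprd+/+ libraries spanned 3.16-fold, on both sides of the Ptprd+/- range, and the log2 fold change was -0.13 (SE 0.35), 0.28 without Ptprd+/+ 3 and -0.47 without Ptprd+/+ 1. Cyp7b1 is known as a male-biased gene in mouse liver. Slco1a1, another male-biased gene of bile acid uptake that was looked up once its values were known, had 1.87 CPM in Ptprd+/+ 1 and 73.8 to 243 CPM in the other libraries, and the female-biased Sult2a1 had 169 CPM there and 0.215 to 26.7 CPM elsewhere. These 3 genes therefore all set Ptprd+/+ 1 apart. Sult2a1 was also higher in Ptprd+/+ 2, at 26.7 CPM, than in the remaining libraries, at 0.215 to 4.28 CPM. The sex of the animals is not given, and the part of the state of Ptprd+/+ 1 in the Cyp7b1 value was not tested.

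Per kilobase of annotated exon, Cyp27a1 was the most abundant of the 4 enzymes, at 273 ± 29.7 CPM per kb in Ptprd+/- livers and 290.2 ± 42.2 in Ptprd+/+ livers. Cyp8b1 followed with 123 ± 65.8 and 147 ± 14.1 CPM per kb, then Cyp7a1 with 32.1 ± 8.46 and 47.9 ± 11.7, and Cyp7b1 with 16.9 ± 3.03 and 18.6 ± 9.50 (SD, n = 3 each). The Cyp7a1 figure uses 4174 bases of exon.

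Baat was the gene whose genotypes separated. It lies on chromosome 4 at 49489422 to 49506557 (mm10), 26.4 Mb from Ptprd, and encodes the enzyme that conjugates bile acids with taurine or glycine. It had 249.8, 226 and 214 CPM in Ptprd+/- livers and 278, 269 and 266 CPM in Ptprd+/+ livers. The highest Ptprd+/- library was below the lowest Ptprd+/+ library by less than the Ptprd+/- SD. The means were 229.97 ± 18.3 and 271 ± 6.57 CPM (SD, n = 3 each), 1.18-fold lower in Ptprd+/- livers, a log2 fold change of -0.24 (SE 0.10, 95% interval -0.47 to -0.0061). The unadjusted p was 0.0454, the edgeR adjusted p 0.694 and the DESeq2 adjusted p 0.654, and the exact permutation p was 0.1, the smallest that 3 against 3 allows. Leaving out single libraries moved the log2 fold change between -0.31 and -0.19, and it was -0.11 (unadjusted p 0.412, edgeR adjusted p 0.714) without Ptprd+/- 2 and 3. Its spread within genotypes was small, a pooled SD of 0.084 log2 units.

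Slc27a5, the bile acid coenzyme A ligase acting before Baat, had 1242, 1024 and 925 CPM in Ptprd+/- livers and 1183, 1079 and 1239 CPM in Ptprd+/+ livers. Ptprd+/- 1 was the highest library of all, and Ptprd+/- 2 and 3 were the lowest. Its log2 fold change was -0.13 (95% interval -0.45 to 0.19). Per kilobase of exon it was the most abundant of the 10 genes, at 436 ± 66.6 CPM per kb in Ptprd+/- livers and 479 ± 33.3 in Ptprd+/+ livers (SD, n = 3 each).

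**Figure D3:**
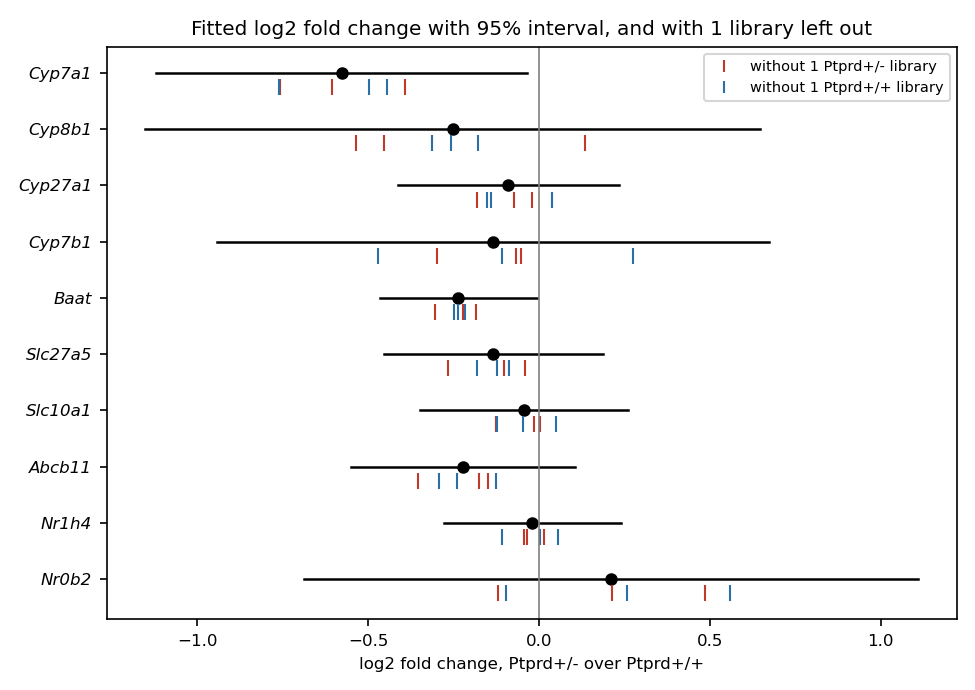
Fitted log2 fold change of Ptprd+/- over Ptprd+/+ (horizontal axis) with its 95% interval for the 10 genes, and below each the values with 1 library left out (ticks). The intervals of Cyp7a1 (-1.12 to -0.034) and Baat (-0.47 to -0.0061) end just short of 0, and the ticks of Cyp8b1, Cyp27a1, Cyp7b1, Slc10a1, Nr1h4 and Nr0b2 fall on both sides of it.

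Neither transporter passed the test. Slc10a1, the sodium-dependent uptake carrier, had 703, 823 and 691 CPM in Ptprd+/- livers and 857, 669.98 and 758 CPM in Ptprd+/+ livers. The ranges overlapped almost fully, and the log2 fold change was -0.045 (95% interval -0.35 to 0.26). Abcb11, the export pump, had 565, 455 and 433 CPM in Ptprd+/- livers and 640.3, 547 and 509 CPM in Ptprd+/+ livers. Ptprd+/- 2 and 3 lay below every Ptprd+/+ library while Ptprd+/- 1 lay within their range. The log2 fold change was -0.22 (SE 0.14, edgeR adjusted p 0.746), and 0.0020 without Ptprd+/- 2 and 3. Among the 10 genes Abcb11 and Baat had the most alike patterns, with a root mean square difference of 0.0953 log2 units, followed by Cyp27a1 and Slc27a5 at 0.0954.

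The receptors differed in how even they were. Nr1h4 (FXR) had 145, 159 and 157 CPM in Ptprd+/- livers and 136, 159.6 and 172 CPM in Ptprd+/+ livers. The Ptprd+/- values lay inside the Ptprd+/+ range, with a log2 fold change of -0.020 (95% interval -0.28 to 0.24). Nr0b2 (SHP), on chromosome 4 at 133553376 to 133556536 (mm10) and 55.3 Mb from Ptprd, had 31.2, 22.2 and 13.1 CPM in Ptprd+/- livers and 27.2, 20.1 and 9.88 CPM in Ptprd+/+ livers. Both genotypes spanned more than their difference, 2.38-fold and 2.76-fold from lowest to highest. The log2 fold change was 0.21 (SE 0.39, edgeR adjusted p 0.919), and -0.095 without Ptprd+/+ 3. The libraries lowest in Nr0b2, Ptprd+/- 3 and Ptprd+/+ 3, did not share a Cyp7a1 or Cyp8b1 level. Ptprd+/+ 3 had 221 CPM of Cyp7a1 and 315 CPM of Cyp8b1, whereas Ptprd+/- 3 had 139 and 92.8 CPM.

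FXR and the receptors around it bind DNA hexamers near the promoters of some of these genes. RefSeq promoter windows (GRCm38.p6, 250 bases before to 50 after the start) were held for 6 of the 10 genes, Cyp8b1, Cyp27a1, Slc10a1, Abcb11, Nr1h4 and Nr0b2. The windows of Abcb11, Nr0b2 and Cyp8b1 are shown, the textbook FXR target genes and the SHP-repressed enzyme whose level varied most. They lie at chr2:69342567-69342866 (minus strand), chr4:133553126-133553425 (plus strand) and chr9:121916256-121916555 (minus strand), each printed 5′ to 3′ with the motif matches in capitals.
Abcb11: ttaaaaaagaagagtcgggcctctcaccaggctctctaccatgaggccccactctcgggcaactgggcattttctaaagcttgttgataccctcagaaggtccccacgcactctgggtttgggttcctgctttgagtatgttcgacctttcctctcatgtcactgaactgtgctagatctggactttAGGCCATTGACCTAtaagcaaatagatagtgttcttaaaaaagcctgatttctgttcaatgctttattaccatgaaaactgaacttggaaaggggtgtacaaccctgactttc
Nr0b2: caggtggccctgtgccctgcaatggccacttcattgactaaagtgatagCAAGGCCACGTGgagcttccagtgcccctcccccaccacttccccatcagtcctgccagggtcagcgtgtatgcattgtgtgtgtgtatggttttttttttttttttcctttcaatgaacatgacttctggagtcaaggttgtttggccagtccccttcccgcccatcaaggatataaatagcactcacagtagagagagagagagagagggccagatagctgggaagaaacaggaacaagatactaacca
Cyp8b1: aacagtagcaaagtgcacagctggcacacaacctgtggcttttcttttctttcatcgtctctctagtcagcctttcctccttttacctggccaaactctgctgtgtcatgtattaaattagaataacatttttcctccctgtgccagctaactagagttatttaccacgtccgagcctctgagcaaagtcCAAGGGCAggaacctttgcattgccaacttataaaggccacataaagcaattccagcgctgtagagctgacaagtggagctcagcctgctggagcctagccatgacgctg
The capitals in Abcb11 hold AGGCCATTGACCT, 63 to 51 bases before the start. It is the inverted repeat IR1 (AGGTCA, 1 free base, and AGGTCA in reverse complement) with the substitution T4C, counted from 1 at the 5′ end of the repeat, and its right arm with the next base also spells TAGGTCA (ROR site) on the opposite strand. An IR1 with at most 1 substitution was held by 27 of 32851 promoters of this length, or 0.0822%. That search was added after the sequence had been read. Exact IR1 letters were in 0.00913% of promoters and in none of the 6 genes. In Nr0b2 the capitals hold CAAGGNCA (LRH-1 site) and CACGTG (E-box), which overlap, and in Cyp8b1 CAAGGNCA alone. Over all promoters these letters were found in 6.71% and 7.15%, AGGTCA in 16.3%, TAGGTCA in 2.61% and the D-box TTANGTAA, the letters that DBP binds, in 2.32%, on either strand. No D-box letters were in the 6 genes' windows, and no window of Cyp7a1 was among them. A match is a description of the letters and not a binding site. For Abcb11 and Nr0b2, and also for Baat, the libraries had the same order within each genotype, number 1 highest and number 3 lowest. None of the other members had this order in both genotypes. How many of all tested genes had it was not counted, and its cause was not tested. Abcb11 spanned 1.30-fold in Ptprd+/- livers and 1.26-fold in Ptprd+/+ livers, less than Nr0b2 did.

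Ratios between genes of the same library, which need no scaling between libraries, were compared at 5 points of the pathway with exact two-sided permutation tests, none below 0.4 before or 0.75 after Benjamini-Hochberg adjustment over the 5. Cyp7a1 over Cyp27a1, the classical against the alternative entry, had a mean log2 ratio of -2.18 ± 0.53 in Ptprd+/- livers and -1.68 ± 0.36 in Ptprd+/+ livers (SD, n = 3 each, exact p 0.4). Ptprd+/- 1 was lowest at -2.78 and Ptprd+/+ 1 highest at -1.29. The difference was -0.50 with all libraries and -0.19 without Ptprd+/- 1. Cyp8b1 over Cyp7a1 was 1.75, 0.87 and -0.58 in Ptprd+/- livers and 0.28, 0.85 and 0.51 in Ptprd+/+ livers. The Ptprd+/- libraries lay on both sides of all Ptprd+/+ libraries, and the linear ratio was 3.37 in Ptprd+/- 1 and 0.667 in Ptprd+/- 3. Cyp7a1 over Cyp7b1 averaged 1.85 ± 0.64 and 2.43 ± 1.03 (exact p 0.6), with Ptprd+/+ 1 apart at 3.62. Slc10a1 over Abcb11 averaged 0.62 ± 0.28 and 0.43 ± 0.14 (exact p 0.4). Nr0b2 over Nr1h4 averaged -2.87 ± 0.68 and -3.14 ± 0.91 (exact p 0.6). These p-values do not show that the ratios were alike, since 3 against 3 cannot reach 0.05.

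**Figure D4:**
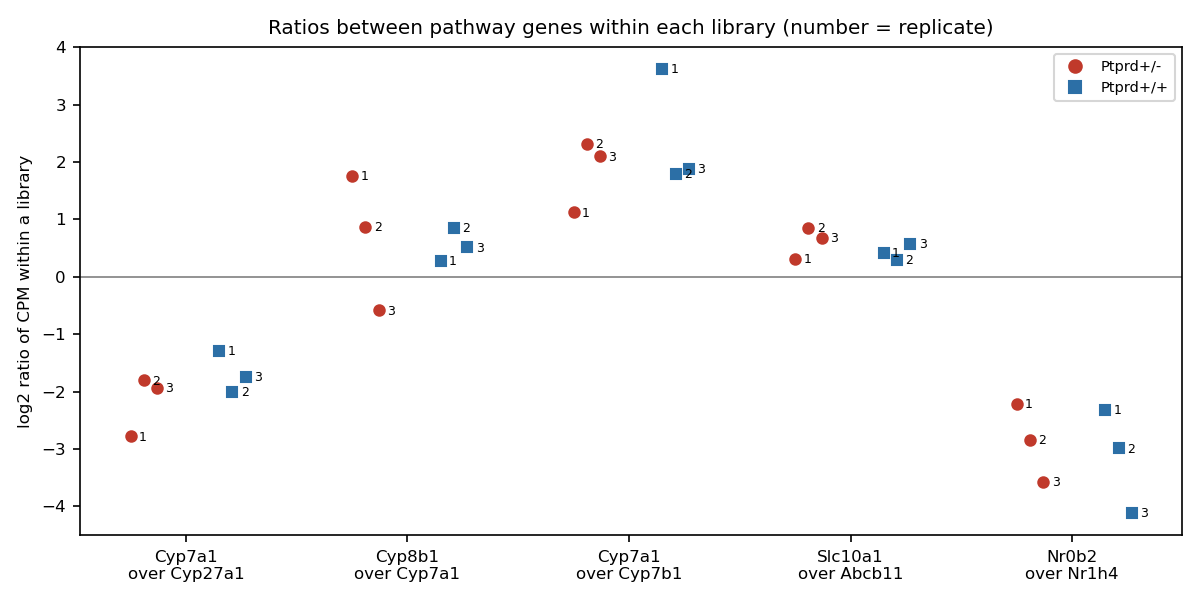
Log2 ratio of CPM between 2 genes of the same library (vertical axis) for 5 gene pairs, Ptprd+/- as circles left and Ptprd+/+ as squares right, with replicate numbers. The Cyp8b1 over Cyp7a1 ratio spreads from 1.75 to -0.58 in Ptprd+/- livers and from 0.28 to 0.85 in Ptprd+/+ livers.

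The rest of the pathway was described with 4 wider lists, in which 0 genes passed an adjusted p of 0.05 by edgeR and 1, the transporter Abcc4, passed by DESeq2 (adjusted p 0.0494). The lists had 14, 16, 23 and 8 tested genes, and DESeq2 called 0.452% of all tested genes. The other synthesis enzymes had 14 tested genes, 7 higher and 7 lower, with a median log2 fold change of -0.0020. Abcd3, a peroxisomal importer of bile acid intermediates, had 576, 746 and 670 CPM in Ptprd+/- livers and 834, 989 and 986 CPM in Ptprd+/+ livers, with no overlap and a log2 fold change of -0.50 (SE 0.14, edgeR adjusted p 0.649). Scp2, whose longer product is the thiolase that shortens the side chain in peroxisomes, had 1527, 1686 and 1553 CPM against 1249, 1206 and 1315 CPM, also with no overlap and on the higher side (0.34, edgeR adjusted p 0.685). Cyp2c70, which makes muricholic acids in mice, had 706, 427 and 369 CPM against 664, 757 and 798 CPM. Its low values were in Ptprd+/- 2 and 3, the libraries apart in clock genes, and the part of the clock state was not tested. Akr1d1, a steroid ring reductase picked with its values known, had 202, 268 and 169 CPM against 400.3, 273 and 250.2 CPM. At an unadjusted p under 0.05 there were 3 lower and 1 higher of these 14 genes, against 550 lower and 495 higher of all 14606 tested genes, 7.15% together. In 3 of the 14 all Ptprd+/- libraries lay above and in 1 below the Ptprd+/+ libraries, against 1044 and 981 of 14606.

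Among the other transporters 11 of 16 tested genes had a negative fold change, with a median of -0.049. Abcc4 (MRP4), a sinusoidal exporter, had 4.64, 5.32 and 4.50 CPM in Ptprd+/- livers and 18.4, 8.30 and 6.61 CPM in Ptprd+/+ livers. The Ptprd+/- libraries were all below, and the size of the difference came mostly from Ptprd+/+ 1 (log2 fold change -1.21, edgeR adjusted p 0.654). Such separation was seen in 3 of the 16 genes, and the reverse in 1, against 981 and 1044 of all 14606 tested genes. Abcb1a, a drug efflux pump gene, had 4.31, 10.3 and 6.63 CPM against 16.8, 10.00 and 8.11 CPM, again highest in Ptprd+/+ 1. Slc51b, a subunit of the sinusoidal organic solute transporter, was near the detection limit with 19, 21 and 4 counts in Ptprd+/- livers and 56, 27 and 22 counts in Ptprd+/+ livers.

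Of the other regulators 16 of 23 tested genes had a positive fold change, with a median of 0.12, and none had an unadjusted p under 0.05. Rxra, the partner receptor of FXR, averaged 495 ± 46.8 CPM in Ptprd+/- livers and 422 ± 10.6 CPM in Ptprd+/+ livers (SD, n = 3 each), with no overlap between genotypes. S1pr2, a bile acid-responsive G protein-coupled receptor, averaged 6.34 ± 0.21 and 7.61 ± 0.63 CPM, also with no overlap. Their log2 fold changes were 0.23 and -0.27, and neither passed the test (edgeR adjusted p 0.698 and 0.705). Of the 23 genes, 2 lay wholly above and 3 wholly below the Ptprd+/+ libraries. Over all 14606 tested genes 1044 and 981 did. The named genes were picked by unadjusted p, which favours such separation.

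Bile acid detoxification had 4 of 8 tested genes at an unadjusted p under 0.05, all lower in Ptprd+/- livers, and a list median of -0.27. Over all 14606 tested genes, 550 were lower at that p. The list was written with earlier results of these data known, so this is not an independent contrast. Cyp2b10, a cytochrome induced through the receptor CAR, had 16.5, 10.5 and 8.06 CPM in Ptprd+/- livers and 47.8, 45.1 and 17.9 CPM in Ptprd+/+ livers, a log2 fold change of -1.67 (edgeR adjusted p 0.585). Sult2a1 and Sult2a2, sulfotransferases that add sulfate to bile acids, had 0.713, 4.28 and 0.215 CPM against 169, 26.7 and 1.53 CPM, and 6.80, 10.00 and 0.859 CPM against 142, 27.2 and 6.99 CPM. Their means rest on Ptprd+/+ 1 and 2, while Ptprd+/+ 3 was within the Ptprd+/- range. These sulfotransferases are close paralogs, so reads could be divided between them and their single values are uncertain.

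**Figure D5:**
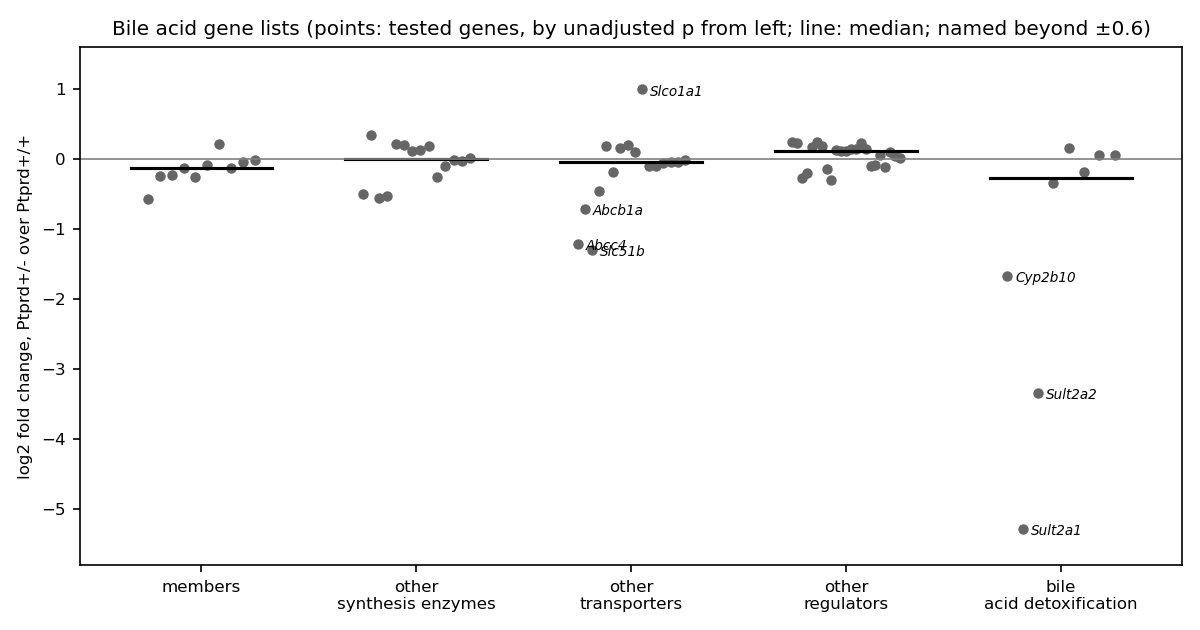
Log2 fold change of Ptprd+/- over Ptprd+/+ (vertical axis) for the 10 bile acid genes (labelled members) and the tested genes of 4 wider lists, ordered within a list by unadjusted p, with list medians as lines. The medians lie between -0.27 and 0.12, and the points beyond ±0.6 are Slco1a1, Abcb1a, Abcc4, Slc51b, Cyp2b10, Sult2a1 and Sult2a2.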

How the data were processed

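The authors deposited a table of raw read counts per Ensembl gene, whole numbers in 1 column per library, per the file headers. The submitters' processing notes name the build mm10, the counter HTSeq 0.6.1p1, the aligner STAR 2.5.3a, DESeq2 1.16.1, bcl2fastq 2.17.1.14 and cutadapt 1.10. Which annotation, strand option and treatment of multi-mapped reads were used is not stated in the labels used here. Left out were the 12 normalized columns of per-sample values, whose decimal marks were altered, and a deposited differential expression table. The median transcript length column, an other unit deposited by the authors, was not used either, and exon lengths came from GENCODE M21 (GRCm38).

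From the counts, edgeR 4.0.16 (R 4.3.3) removed weakly counted genes with filterByExpr, leaving 14606 genes with 99.95% of counts, scaled libraries by TMM and ran its quasi-likelihood test with genotype as the only term, adjusted by Benjamini-Hochberg over all tested genes at 0.05. Log2 CPM values used a prior count of 2. Single values also had exact permutation tests. DESeq2 1.42.0, limma-voom (limma 3.58.1), other scalings and filters, the replicate number, the clock score and left-out libraries were tried. The fits were tested on simulated counts. Named genes were the 10 members, Ptprd, 5 clock genes, 3 genes per wider list by unadjusted p, and the 5 genes most like Cyp7a1. A gene that this rule names among the regulators is not reported here. The members and lists were chosen with earlier results of these data known. No library pair agreed within sampling noise.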

Additional observations from a re-analysis of the deposited data

How the results depend on the processing

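No bile acid gene was called in any of the 15 alternative fits. Over all genes edgeR called 0, DESeq2 66 and edgeR without a count filter 73, and leaving out single libraries gave 0 to 1. Ptprd did not pass in the main edgeR fit (log2 fold change -0.99, adjusted p 0.298). Its log2 fold change was -0.98 with DESeq2 (adjusted p 2.01e-06) and -0.98 without a filter (edgeR adjusted p 5.88e-04), past the threshold in those fits only. Left-out libraries moved it between -1.13 and -0.87. The median over the 10 genes ranged from -0.28 (without Ptprd+/- 1) to -0.039 over left-out libraries, and was 0.037 without Ptprd+/- 2 and 3 together. That last fit also turned the sign of Cyp8b1 (0.19), Cyp27a1 (0.073), Cyp7b1 (0.14), Slc27a5 (0.094) and Abcb11 (0.0020). The clock score as a covariate turned Cyp27a1 (0.014) and Cyp7b1 (0.018), and limma-voom turned Cyp7b1 (0.0043). Over left-out libraries the log2 fold change ran from -0.54 to 0.13 for Cyp8b1, -0.18 to 0.037 for Cyp27a1, -0.47 to 0.28 for Cyp7b1, -0.12 to 0.049 for Slc10a1, -0.11 to 0.055 for Nr1h4 and -0.12 to 0.56 for Nr0b2. The sign of Cyp7a1 and Baat held in all 15, with Baat at -0.11 without Ptprd+/- 2 and 3. Within-library ratio differences (log2) ran from -0.68 to -0.19 for Cyp7a1 over Cyp27a1, 0.065 to 0.34 for Slc10a1 over Abcb11, -0.40 to 0.76 for Cyp8b1 over Cyp7a1, -0.90 to 0.012 for Cyp7a1 over Cyp7b1 and -0.22 to 0.68 for Nr0b2 over Nr1h4 over left-out libraries. Slc10a1 over Abcb11 was -0.11 without Ptprd+/- 2 and 3. The cause of these changes was not tested. Same-numbered libraries did not all deviate together (r across genes -0.068, 0.116 and 0.152 for numbers 1, 2 and 3). Differently numbered libraries had r from -0.298 to 0.175. With 3 libraries per genotype these values cannot decide whether the numbers pair the livers. With the replicate number as a block, edgeR called 0 genes, and 0 of the 10 genes had an unadjusted p under 0.05, with Cyp7a1 at -0.58 (p 0.0719).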

Other observations

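Ptprd+/- 3 held the lowest value of 5 of the 10 bile acid genes (Cyp8b1, Cyp27a1, Baat, Slc27a5 and Abcb11), and Ptprd+/+ 1 the highest value of 4 (Cyp7a1, Baat, Slc10a1 and Abcb11). This was counted after the values had been seen. For the 3 genes with the largest spread within genotypes, the most similar patterns over the 6 libraries were also looked up afterwards. Cyp8b1 lay closest to Insc and Ccng2, at root mean square differences of 0.209 and 0.277 log2 units. Nr0b2 lay closest to Oasl1, an interferon-induced gene, at 0.128. Cyp7b1 lay closest to Cyp4a32 and Serpina3k, at 0.110 and 0.158.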
